A study of Mus musculus with 6 samples.

Results

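The Xlr genes (X-linked lymphocyte regulated) are a mouse family on the X chromosome that holds sets of near-identical copies, first known from lymphoid cells and male germ cells. Their expression was described here in mouse embryonic stem cells (MPI-II), with Ddx5 either intact or disrupted. Members were the rows of the deposited expression table named Xlr, with or without a digit and a letter after it. There were 10 of 10989 genes, namely Xlr, Xlr3a, Xlr3b, Xlr3c, Xlr4a, Xlr4b, Xlr4c, Xlr5a, Xlr5b and Xlr5c, and these are all 10 protein-coding genes with such names in GENCODE M21. None of the 6 annotated Xlr pseudogenes stood in the table. The family was taken up because it had been seen to differ between knockout and wild-type cells in these same libraries. Its knockout against wild-type values are therefore given as a description, without a test.

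RNA was sequenced from 2 libraries of wild-type cells (DDX5+/+, WT, replicates 1 and 2) and from 4 DDX5-/- lines (knockout, KO, lines 1 to 4). Ddx5 encodes an RNA helicase, also called p68. All cells were of the MPI-II background at the same range of passages. They shared feeder-coated plates and a serum medium with leukemia inhibitory factor and 2 kinase inhibitors, PD0325901 against MEK and CH99021 (as the labels spell it) against GSK3. Each KO line was grown from a single cell after a Cas9 nickase and paired guides had been directed to the second exon of Ddx5, with a G418 selection that the WT cells are not said to have had. The labels do not say whether the WT replicates came from separate cultures, so differences are read against a spread that may be partly technical. Ddx5 itself stood at 36433 and 36436 units in WT and at 5854, 8450, 12793 and 5659 units in KO lines 1 to 4, below WT in each line.

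Values are given in deposited units, a normalized score of unknown depth for which library totals (14612799 to 14722877) carry no information on sequencing. In WT replicate 2, 131 genes stood at 0, while each of the remaining libraries had 13 to 19 such genes. All 6 defining stem cell markers were measured and abundant, with summed levels of 64739 and 65733 units in WT and 72827 to 81396 in KO. Lck, a kinase of T lymphocytes, lay at 98 to 156 units in all libraries. Genes below 80 units in 5 of the 6 libraries are not listed in the table at all. In bulk RNA, more cells that express a gene and more RNA per cell cannot be told apart.

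Xlr proteins share a Cor1 region with SYCP3, a structural protein of the meiotic synaptonemal complex, and belong to a superfamily with the X-linked Slx and the Y-linked Sly genes of spermatids. Xlr3b, Xlr4b and Xlr4c are known as imprinted genes of the mouse brain, where the copy on the maternal X is the active one. Xlr3b has also been tied to RNA transport in neurons that lack normal ATRX, a chromatin protein.

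The sequences of the copies decide how far their values can be told apart, so they are shown before the values. In build mm10 the members lie in 2 places. Xlr lies alone (X, 53777118 to 53797706, minus strand). The other 9 lie 19.3 Mb farther along the chromosome, in a cluster of 218.6 kb (X, 73074345 to 73292976). GENCODE gives Xlr5a a span of 185.3 kb that holds 6 other members, since 1 of its transcripts is placed at another copy. Within a subfamily (Xlr3, Xlr4 or Xlr5), coding sequences were 98.2% to 99.5% identical over 9 pairs. Between subfamilies, Xlr included, 36 pairs were 57.7% to 63.8% identical. The 3 Xlr3 copies differ at 14 of 678 coding positions, and the stretch of 60 bases that holds the most of these differences (coding bases 189 to 248) is given below, with the bases not shared by all copies in capitals.
Xlr3a: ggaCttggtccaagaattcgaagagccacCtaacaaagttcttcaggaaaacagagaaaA
Xlr3b: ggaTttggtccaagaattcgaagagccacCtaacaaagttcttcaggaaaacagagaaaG
Xlr3c: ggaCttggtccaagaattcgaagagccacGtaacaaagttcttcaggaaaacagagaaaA
The 3 Xlr4 copies differ at 8 of 645 coding positions, and their stretch with the most differences (coding bases 508 to 567) reads as follows, with capitals as before.
Xlr4a: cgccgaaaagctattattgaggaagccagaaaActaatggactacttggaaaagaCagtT
Xlr4b: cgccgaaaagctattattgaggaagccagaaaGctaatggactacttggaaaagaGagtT
Xlr4c: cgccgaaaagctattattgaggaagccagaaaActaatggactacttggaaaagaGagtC
Each stretch holds 3 differing positions, so a short read can often be assigned to a subfamily but not to a copy.

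The share of each member's sequence that is its own was counted as the share of 50-base words in its protein-coding transcripts that occur in no other GENCODE gene. It was 84.0% for Xlr. For the clustered copies it was lower, at 42.8% for Xlr4c, 29.7% for Xlr4b, 28.1% for Xlr4a, 27.9% for Xlr3c and 27.4% for Xlr3a. The lowest shares were those of Xlr5a (15.8%), Xlr5c (15.6%), Xlr5b (9.27%) and Xlr3b (6.67%). As an example of sharing within a subfamily, 66.5% of the words of Xlr3b also occur in Xlr3c. How long the reads were, and how reads matching several copies were handled, is not given in the sources used here. Values of single copies are therefore uncertain, and the sums of a subfamily are the firmer measure, although sums of normalized scores are not read counts.

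The upstream sequences are alike within Xlr3 and within Xlr4. Over the RefSeq windows (250 bases before to 50 after the start, GRCm38.p6, the assembly of mm10), Xlr4 copies were 98.1% to 98.9% identical and Xlr3 copies 93.7% to 98.1%. Xlr5a and Xlr5b were identical over 255 aligned bases, while the window of Xlr5c, whose RefSeq start lies elsewhere in the gene, was 60.5% and 66.8% identical to them. One window per group is printed here from the base 250 before the start up to the start, 5′ to 3′ on the gene's strand, with the letters CCAAT or their reverse ATTGG in capitals. The windows are X:73097096-73097345 (minus strand) for Xlr3a, X:73082508-73082757 (minus) for Xlr4a, X:73148591-73148840 (plus) for Xlr5b and X:53797707-53797956 (minus) for Xlr.
Xlr3a: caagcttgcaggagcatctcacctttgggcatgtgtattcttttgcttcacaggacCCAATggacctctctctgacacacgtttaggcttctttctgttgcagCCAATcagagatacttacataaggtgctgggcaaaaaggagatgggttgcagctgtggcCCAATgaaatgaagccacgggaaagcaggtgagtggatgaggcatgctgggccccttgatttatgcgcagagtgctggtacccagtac
Xlr4a: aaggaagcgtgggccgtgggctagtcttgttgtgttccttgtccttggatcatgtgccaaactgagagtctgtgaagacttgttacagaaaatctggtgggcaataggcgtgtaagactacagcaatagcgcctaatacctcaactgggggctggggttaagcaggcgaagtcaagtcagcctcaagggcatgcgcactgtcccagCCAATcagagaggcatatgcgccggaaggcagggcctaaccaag
Xlr5b: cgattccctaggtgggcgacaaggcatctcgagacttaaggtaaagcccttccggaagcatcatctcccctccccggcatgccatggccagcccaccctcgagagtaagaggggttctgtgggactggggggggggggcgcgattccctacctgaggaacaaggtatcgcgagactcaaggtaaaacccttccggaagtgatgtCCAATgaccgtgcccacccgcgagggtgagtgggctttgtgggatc
Xlr: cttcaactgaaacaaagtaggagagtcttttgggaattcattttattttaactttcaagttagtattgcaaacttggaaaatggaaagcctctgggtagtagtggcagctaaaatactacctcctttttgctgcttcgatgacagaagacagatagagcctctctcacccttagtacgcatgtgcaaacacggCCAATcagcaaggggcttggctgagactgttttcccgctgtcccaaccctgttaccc
On either strand of the 250 upstream bases, CCAAT occurred in 8 of the 10 members (not in Xlr5a and Xlr5c) and in 33.8% of 32851 RefSeq windows of the same length. The 8 are not independent, since copies share their sequence. The upstream bases of Xlr5a end at the first base of the match seen in Xlr5b, so its absence there depends on the annotated start. CACGTG occurred in no member and in 6.02% of windows, GGGCGG in none and in 32.7%, and TATAAA in none and in 12.4%. TTCCCGC occurred in Xlr alone among the members and in 3.82% of windows. The member windows held 1 (Xlr5c) to 14 (Xlr5b) CG pairs, against a median of 6 over all windows. These are matches of letters, and no binding was measured.

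Summed over its 10 members, the family reached 785 and 705 units in WT and at 2969, 4066, 3142 and 1678 units in KO lines 1 to 4. All 4 lines lay above both WT libraries, and the lowest line was 2.14 times the higher WT library. The mean over KO lines, 2964 ± 983 (SD, n = 4), was 3.98 times that of WT, 745 ± 56.6 (SD, n = 2). The mean log2 level of the members was 1.95 higher in KO than in WT. The 2 WT libraries, which differed widely for single copies, were close to each other in this sum because opposite differences offset each other. From WT replicate 1 to 2, Xlr3 went from 343 to 504 units and Xlr5 from 70 to 118. Xlr4 went from 180 to 70 units and Xlr from 192 to 13. The mean log2 level of the members was 2.39 in WT replicate 1 and 1.63 in WT replicate 2.

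**Figure D1:**
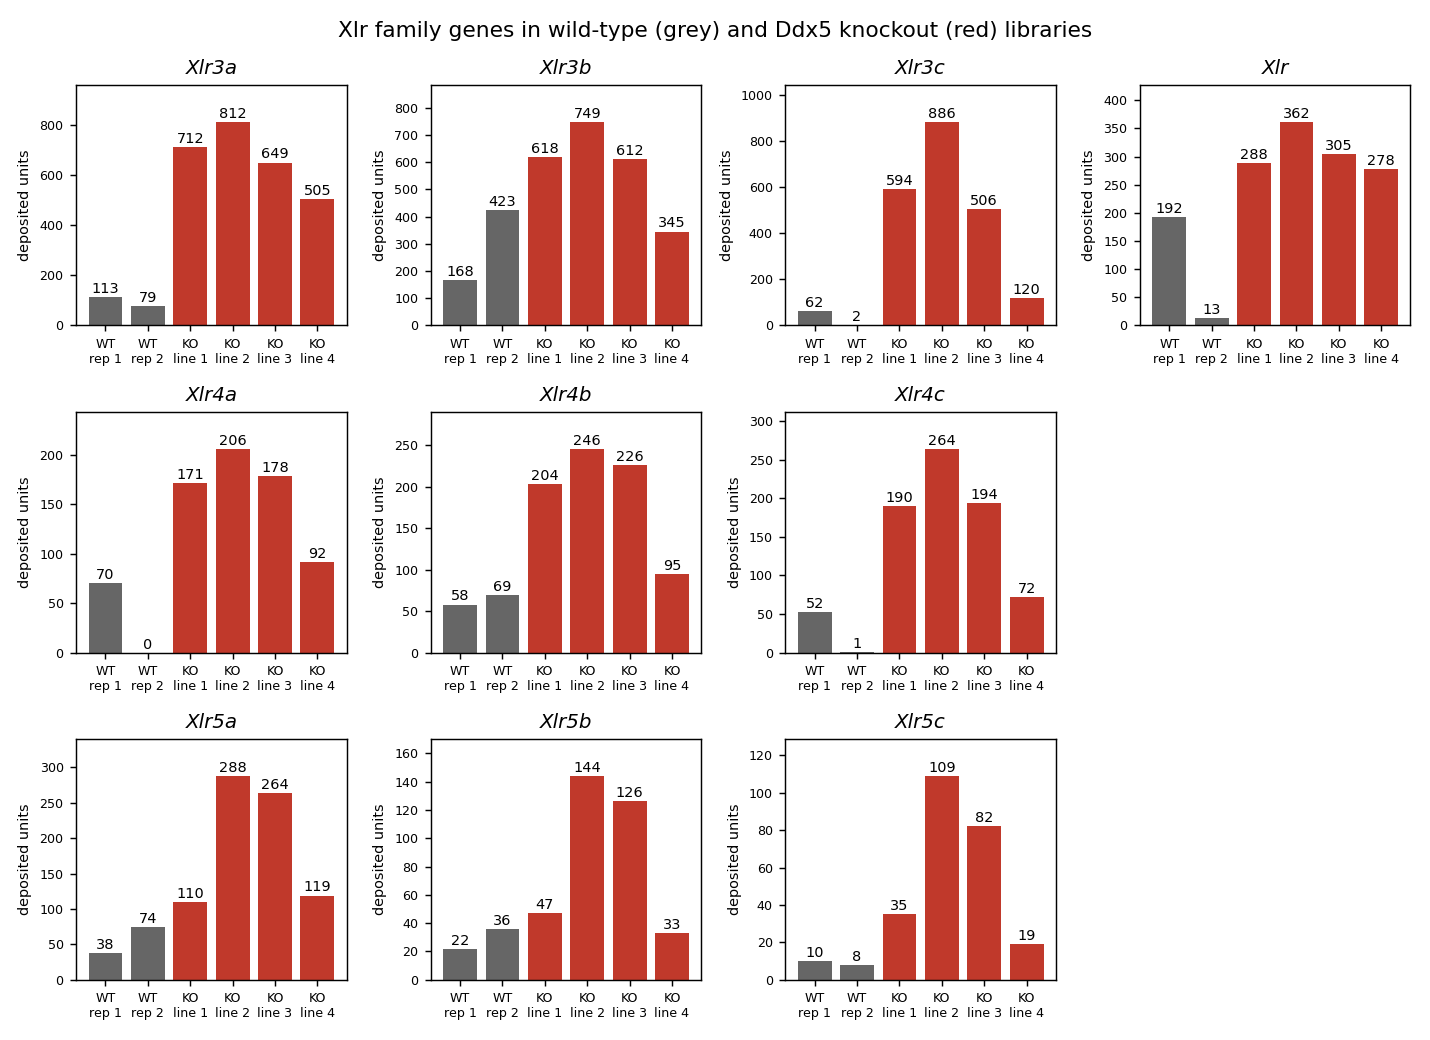
Bars give the value of each of the 10 Xlr family genes in deposited units, on an axis from 0 that differs between panels, in the WT replicates (grey) and the KO lines (red). KO line 2 is the highest of the lines in every panel, and WT replicate 2 is near 0 for Xlr3c, Xlr4a and Xlr4c.

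By subfamily, the log2 difference in the mean level was 2.43 for Xlr3, 2.03 for Xlr4 and 1.35 for Xlr5. In Xlr3, Xlr3a stood at 113 and 79 units in WT and at 712, 812, 649 and 505 units in KO lines 1 to 4. Its KO lines all lay well above both WT libraries, which were close to each other. The mean was 6.97-fold higher in KO (log2 difference 2.62). Xlr3b, the copy with the least sequence of its own, stood at 168 and 423 units in WT and at 618, 749, 612 and 345 units in KO. The groups overlapped, since KO line 4 lay below WT replicate 2, and the log2 difference was 1.02. It was 0.39 without WT replicate 1 and 1.65 without WT replicate 2. Xlr3c stood at 62 and 2 units in WT and at 594, 886, 506 and 120 units in KO, with no overlap but a 7.38-fold range among the lines. As a subfamily, Xlr3 summed to 343 and 504 units in WT and to 1924, 2447, 1767 and 970 units in KO, a 4.20-fold difference of means with no overlap.

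The Xlr4 copies, which include the brain-imprinted Xlr4b and Xlr4c, likewise stood higher in the KO lines. Xlr4a stood at 70 and 0 units in WT and at 171, 206, 178 and 92 units in KO. Xlr4b stood at 58 and 69 units in WT and at 204, 246, 226 and 95 units in KO. Xlr4c stood at 52 and 1 units in WT and at 190, 264, 194 and 72 units in KO. None of the 3 overlapped between the groups, but KO line 4 was only 1.44 times the higher WT library when the copies were summed. The sums were 180 and 70 units in WT and 565, 716, 598 and 259 units in KO. Leaving out WT replicate 2 reduced the log2 difference from 2.27 to 1.01 for Xlr4a and from 2.47 to 1.43 for Xlr4c. Leaving out WT replicate 1 instead raised them to 3.53 and 3.51.

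The Xlr5 copies split the KO lines into a high and a low pair. Xlr5a stood at 38 and 74 units in WT and at 110, 288, 264 and 119 units in KO. Xlr5b stood at 22 and 36 units in WT and at 47, 144, 126 and 33 units in KO. Xlr5c stood at 10 and 8 units in WT and at 35, 109, 82 and 19 units in KO. Lines 2 and 3 were high for all 3 copies, lines 1 and 4 lay closer to WT, and Xlr5b overlapped in line 4. The sums were 70 and 118 units in WT and 192, 541, 472 and 171 units in KO, 3.66-fold apart in the mean.

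Xlr, the founding member, which lies outside the cluster and has mostly unique sequence, showed another pattern. It stood at 192 and 13 units in WT and at 288, 362, 305 and 278 units in KO. The KO lines were even, with a 1.30-fold range, while the 2 WT libraries were farther apart on the log2 scale than for 99.0% of all genes. Its log2 difference was 2.09 with both WT libraries, 0.64 without WT replicate 2 and 3.54 without WT replicate 1, so its size rests on which WT library is used.

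Across the family, 8 of 10 members had all KO lines above both WT libraries, which held for 24.1% of all genes, and none had all lines below them (19.6% of all genes). Against WT replicate 1 alone it was 10 of 10 (35.2% of all genes), and against WT replicate 2 alone 8 of 10 (41.2%), Xlr3b and Xlr5b being the exceptions. Nothing is read from these counts, since the family was picked from this contrast. They are also shaped by the table, in which every gene reaches 80 units in at least 2 libraries. Xlr3b alone of the members did so in both WT libraries, so the other 9 depended on at least 1 KO line to be listed. The members nearest to that limit were Xlr5c, whose highest values were 109 and 82 units, and Xlr5b with 144 and 126 units.

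The split of Xlr3 and of Xlr4 among their copies in WT replicate 2 lay outside the range of the other 5 libraries. Xlr4b made up 34.4% to 37.8% of the Xlr4 sum in KO, 32.2% in WT replicate 1 and 98.6% in WT replicate 2. Xlr3b made up 30.6% to 35.6% of the Xlr3 sum in KO, and in WT it made up 49% (replicate 1) and 83.9% (replicate 2). Xlr3c accounted for 28.6% to 36.2% in KO lines 1 to 3, 12.4% in KO line 4, 18.1% in WT replicate 1 and 0.397% in WT replicate 2. In Xlr5 the split moved less, with Xlr5a at 53.2% to 69.6% in KO and at 54.3% and 62.7% in WT, but Xlr5c was at 6.78% in WT replicate 2 and at 11.1% or more elsewhere. Over the whole table, 164 genes stood at 2 units or less in WT replicate 2, of which 108 stood at 50 or more in WT replicate 1. The reverse held for 7 of 26 genes. The near-zero values of Xlr3c, Xlr4a and Xlr4c in WT replicate 2 thus came with a general excess of such values in that library. The part of read assignment among copies in this was not tested. Xlr, with 84.0% unique words, was also low there.

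**Figure D2:**
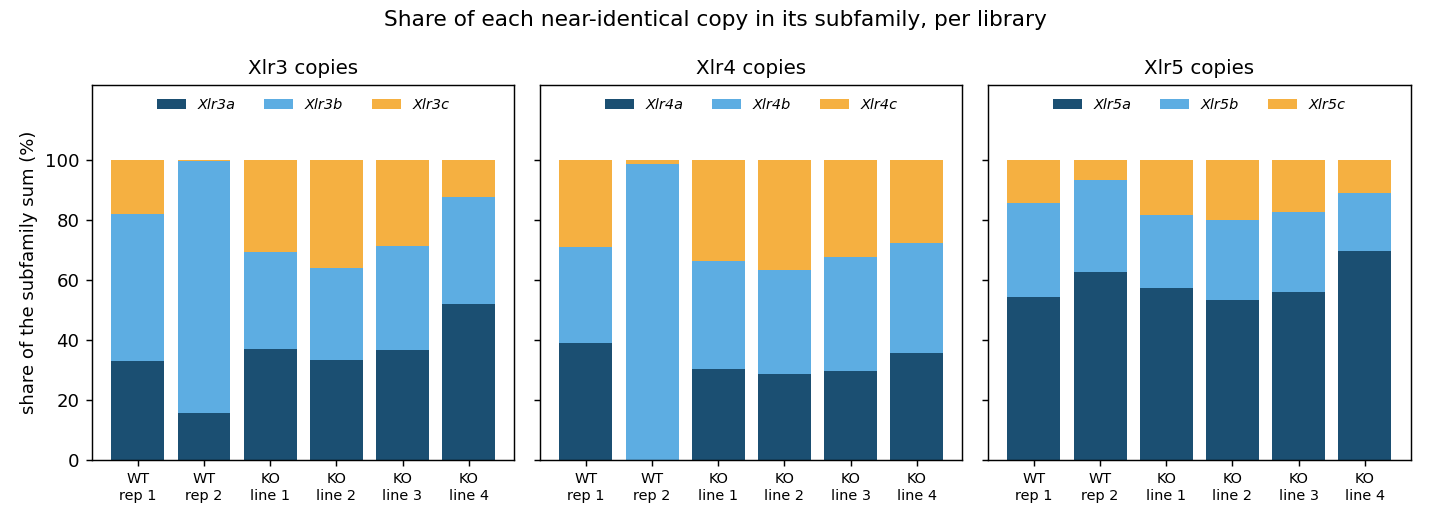
Stacked bars give the percentage of the summed deposited units of Xlr3, Xlr4 and Xlr5 that falls to each copy, per library. In WT replicate 2, Xlr3b takes 83.9% of Xlr3, Xlr4b takes 98.6% of Xlr4, and Xlr5c takes 6.78% of Xlr5, below its share in the other libraries.

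Differences among the KO lines do not involve the WT libraries. KO line 2 was the highest of the 4 lines for 10 of 10 members, against 15.9% of all genes and 15.3% of the other 405 X-linked genes. KO line 4 was the lowest for 9 of 10, against 34.1% of all genes and 30.6% of the other X-linked genes. The copies share sequence, so these are closer to 4 observations (Xlr, Xlr3, Xlr4 and Xlr5) than to 10. The SD of log2 levels among the KO lines was larger than that of 98.2% to 99.5% of all genes for Xlr3c, Xlr4c, Xlr5a, Xlr5b and Xlr5c. For Xlr, in contrast, it exceeded 55.8% of genes. No test was made of these shares. Low genes vary more on this scale. Ddx5 transcript was highest in KO line 3, followed by lines 2, 1 and 4. The mean log2 level of the family was highest in line 2, followed by lines 3, 1 and 4. The orders thus differ only in lines 2 and 3, and a link between them was not tested.

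Related genes at the same places on the X chromosome were compared next. They were not used to choose the family, but the limit for listing bears on them too. The gene 1700013H16Rik, listed by RefSeq with the older names Slx2 and Xlr6, starts 39875 bases from Xlr (X, 53742901 to 53757831). It stood at 138 and 0 units in WT and at 418, 503, 286 and 214 units in KO, all above WT, and did not pass (log2 difference 2.89, SE 0.847, adjusted p = 0.057). The difference was 4.58 without WT replicate 1, where it passed, and 1.21 without WT replicate 2. Gm14685 starts within the cluster on the plus strand (X, 73117047 to 73129262), 655 bases from the RefSeq start of Xlr5a on the opposite strand. It stood at 7 and 0 units in WT and at 26, 166, 134 and 20 units in KO. Lines 2 and 3 were the high ones here too, as for the Xlr5 copies, and the gene did not pass (log2 difference 2.14, adjusted p = 0.103). Use of strand in the counting is not given in the sources used here. Annotated transcripts of Gm14685 share no 50-base word with the protein-coding transcripts of Xlr5a on either strand. The gene 3830403N18Rik, which shares 6.73% of the words of Xlr and was looked up for that reason after the values had been seen, stood at 33 and 0 units in WT and at 118, 124, 146 and 99 units in KO (log2 difference 2.35, adjusted p = 0.0206). Its call was lost without KO line 1, 2 or 3 (adjusted p up to 0.0724). Its log2 difference ran from 1.51 to 3.20 over the fits that omit a library. Gm14685 and 3830403N18Rik reached the 80 units needed for listing in KO lines only. They were thus bound to differ, and their values support nothing. 1700013H16Rik reached 80 units in WT replicate 1 but not in WT replicate 2, so it too needed a KO line to be listed.

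The genes around the family were mostly not called. Of 17 measured genes that start within 500 kb of a member, 1 rose (where 9.75% of all genes were called higher), 2 fell (7.34% lower) and 14 did not pass, with a median log2 difference of -0.06, against 0.04 over all genes. Dusp9, a phosphatase of MAP kinases, rose from 483 and 697 units to 1862, 1590, 1548 and 1972 units (log2 1.55, SE 0.174, adjusted p = 0.00475). Bgn, which encodes the matrix proteoglycan biglycan, went from 3604 and 1438 units to 230, 92, 142 and 110 units (log2 -3.93, SE 0.436, adjusted p = 0.00475). Leaving out any single library ended neither call. Cxx1b, which starts 127298 bases from Xlr, went from 238 and 218 units to 136, 90, 112 and 92 units (log2 -1.0, adjusted p = 0.0233), a call lost in 3 of 6 such fits (adjusted p up to 0.0767). The genes that flank the cluster had small differences that did not pass, with log2 values of 0.20 for Pnma5 and 0.47 for the zinc finger gene Zfp275 (adjusted p = 0.658 and 0.0546). Zfp275 passed without WT replicate 1 only. Of the other named neighbours, Zfp185, Nsdhl, Cetn2, Haus7 and the creatine transporter gene Slc6a8 had log2 differences of -0.26 to 0.14 and did not pass.

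**Figure D3:**
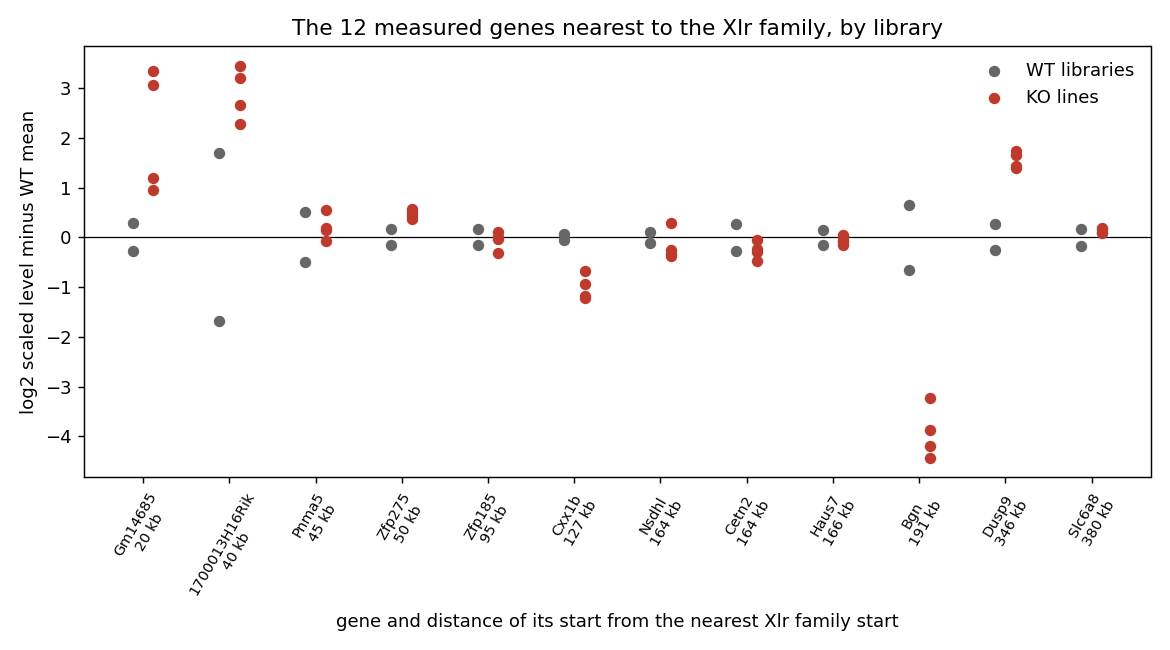
Points give log2 scaled levels minus the WT mean for the 12 measured genes nearest to a member, ordered by the distance of their start in kb, in WT libraries (grey) and KO lines (red). Gm14685, 1700013H16Rik, Zfp275 and Dusp9 have all KO lines above WT, Bgn and Cxx1b have them below, and most others lie near 0.

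The other genes of the X chromosome were counted in the same way. Of the other 405 X-linked genes, 28 rose and 48 fell, 6.91% and 11.9%, beside 9.75% and 7.34% of all genes. Without WT replicate 1 the order turned. Calls in both directions were also more frequent over all genes in that fit, so nothing is read from the turn about X-linked genes. Their median log2 difference was 0.01. Per library, the median deviation of X-linked genes from each gene's middle level lay between -0.05 and 0.05.

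Genes of the germ line, where the Xlr superfamily is best known, were compared over the same lines. Of 47 listed X-linked germ cell genes and relatives of Xlr, 13 were in the table, of which 5 were called higher (9.75% of all genes), 1 lower (7.34%) and 7 in neither direction. The median log2 difference was 0.66. The ubiquitin protease gene Usp26, expressed in testis, went from 31 and 1 units to 143, 134, 150 and 122 units (log2 2.50, SE 0.429, adjusted p = 0.0134). The homeobox gene Rhox5 of the reproductive Rhox cluster went from 146 and 148 units to 682, 682, 457 and 449 units (log2 1.82, SE 0.215, adjusted p = 0.0054). The call of Rhox5 remained in 6 of 6 fits that omit a library, those of Usp26 and Tex16 (log2 1.74) in 4 of 6 and that of Rhox13 (log2 1.62) in 2 of 6. Usp26, Tex16 and Rhox13 reached the 80 units needed for listing in KO lines only, so they were bound to differ and their calls support nothing. Tex11, a meiotic gene, was the other called higher and Nr0b1, a nuclear receptor, the one called lower. Without KO line 2 or without KO line 3, 1 of the 13 was called higher, where 2.157% and 2.785% of all genes were.

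Of 45 listed germ line genes on other chromosomes, 25 were in the table and 17 of these were called higher (9.75% of all genes), none lower (7.34%) and 8 in neither direction. The median log2 difference was 1.09, against 0.04 over all genes, and part of this list was known from earlier results to be higher. Genes silent in WT enter the table only through the KO lines, so the count does not stand for all listed genes. The strongest were the RNA-binding protein genes Boll (log2 3.84, SE 0.267, adjusted p = 0.00181), listed at 0 in both WT libraries, Rbm46 (3.64), Rbm44 (2.85) and the piRNA helicase gene Mov10l1 (2.85). Without KO line 2, 8 germ line genes were called higher (2.157% of all genes), and without KO line 3, 7 were (2.785%). Calls thus became fewer over the whole table too. The mean log2 level of the germ line genes was 4.57, 4.66, 4.6 and 4.50 in lines 1 to 4. That of the Xlr family was 3.91, 4.53, 4.23 and 3.17, the same order of lines over a wider range.

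Chromatin genes, some of which keep germ line genes silent in other cells, were called about as often as other genes or less. All 40 listed genes of DNA methylation and chromatin silencing were measured, and 5 rose (12.5%, beside 9.75% of all genes), 1 fell (2.5%, beside 7.34%) and 34 did not pass, with a median log2 difference of 0.09. Dnmt3l, a cofactor of the de novo DNA methyltransferases, went from 1366 and 1422 units to 583, 982, 742 and 830 units (log2 -0.84, SE 0.196, adjusted p = 0.0309), a call that 4 of 6 fits omitting a library lost (adjusted p up to 0.103). Hells, a chromatin remodeler needed for DNA methylation at repeats, rose by 0.66 (adjusted p = 0.00509), in each such fit. Mphosph8, a subunit of the HUSH silencing complex, and Smchd1, which acts on the inactive X chromosome and on imprinted clusters, rose by 0.58 and 0.49, calls lost in 4 and 5 of 6 fits (adjusted p up to 0.119 and 0.103). The other genes that rose were Cbx5 and Fam208a.

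Fibroblast markers, which feeder cells could bring, moved the other way in the same lines. Of 20 listed, 18 were measured and 16 fell (7.34% of all genes did so), none rose and 2 did not pass, with a median log2 difference of -2.57. Their mean log2 level was 6.82 and 5.96 in WT and 3.47 to 4.08 in KO. Summed, the 9 measured defining markers stood at 60536 and 41566 units in WT and at 37864 to 39173 in KO, and none of the 9 was at 0 in any library. Of the KO sum, Col1a2 made up 180 to 440 units and Col6a1 4 to 8, so most of it came from other markers. The sum thus does not show how far single markers fell. Col6a1 and Col6a2 had the largest falls (log2 -5.06 and -4.57), ahead of Col1a2 (-4.30) and the chemokine gene Ccl2 (-3.61). The part of these cells in the Xlr values was not tested. Bgn, which starts 190626 bases from a member, is a matrix gene too. Among the 13 stem cell markers, Nanog rose by 0.89, Klf4 fell by 0.94 and 11 did not pass. The Nanog call was lost without WT replicate 2 and without KO line 3 (adjusted p up to 0.0601), that of Klf4 in none of 6 such fits.

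**Figure D4:**
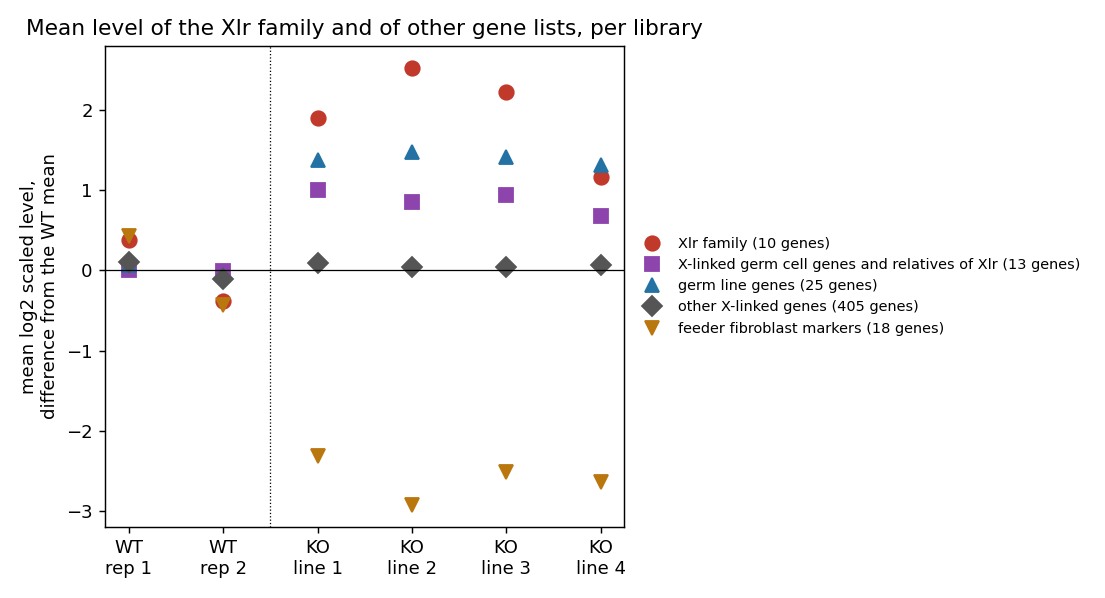
Points give the mean log2 scaled level of each gene list in each library, as the difference from the mean of the WT libraries. The Xlr family spreads over the KO lines, highest in line 2 and lowest in line 4, while the germ line list has the same order of lines over a narrower range and the other X-linked genes lie near 0.

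The genes whose profile was most like that of the family over the 6 libraries were sought among all genes that are not members, by the root mean square difference of centred log2 levels. They were Aspa (aspartoacylase, difference 0.19), Rhox13 (0.23), Nfatc2 (a transcription factor of activated lymphocytes and other cells, 0.27), Rec8 (the meiotic cohesin subunit, 0.28) and Mypn (myopalladin of muscle sarcomeres, 0.29). Single members were farther from the family's own mean, at 0.37 (Xlr5c) to 1.01 (Xlr3c). Nothing is read from this, since the 5 genes were picked as the closest of all and the members were not. Rhox13, Nfatc2 and Mypn reached the 80 units needed for listing in KO lines only. Aspa stood at 94 and 35 units in WT and at 258, 340, 250 and 156 units in KO. Rec8 stood at 163 and 86 units in WT and at 409, 418, 506 and 256 units in KO, with line 3 in place of line 2 as the highest. Of the 5 genes, Rhox13 alone is X-linked.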

How the data were processed

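The deposited table gives 1 value per gene and library. Per the submitters' processing notes, RSEM 1.2.17, Bowtie2 2.2.0 and mouse build mm10 were used; what each tool did, and which annotation and normalization were applied, is not given in the sources used here. Values as deposited are named CPM by the authors but are whole numbers with nearly equal totals and shared top values, so they were treated as a normalized score without a count model. The design text speaks of triplicates, the labels of 2 WT and 4 KO libraries. Values were divided by 14.7 units (set from the mean library total) to give scaled levels, 1 was added and log2 taken, which understates differences of low genes; folds are ratios of mean deposited units. All genes had a scaled value of at least 1 in 2 libraries. KO and WT were compared over all 10989 genes with limma 3.58.1 in R 4.3.3 (lmFit, eBayes with trend, two-sided, no covariate, Benjamini-Hochberg, called below 0.05), tested on simulated data. All adjusted p-values come from it.

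Positions and transcripts come from GENCODE M21 (mm10), matched for 10941 genes, and promoters from RefSeq (10 of 10 members). Alignments were global with free ends (Biopython 1.88). Named genes were the members, Ddx5, the 12 nearest genes within 500 kb, up to 4 called genes per list (or, with none called, the 2 most abundant) and the 5 nearest profiles. Members, lists and tests were chosen with earlier results of these data known, and the promoter motifs after the windows had been seen. Tex11, Nr0b1, Cbx5, Fam208a and 3830403N18Rik were named after their values were seen. Alternatives were other pseudocounts, quantile normalization, other filters, each library left out, and a replicate block. Ordered lists and sums over copies are descriptions. Part of the lymphocyte marker check is not reported here.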

Additional observations from a re-analysis of the deposited data

Results flagged for a closer look

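Of the values given for single genes, 1 was set apart within the KO lines by Dixon's criterion for 4 samples. Nsdhl, a gene of cholesterol synthesis that starts 163921 bases from a member, was at 424, 457 and 437 units in lines 1, 2 and 3 and at 680 units in line 4. The gap of the highest line to the next was 0.871 of the whole range. Chance marks about 1 in 20 such groups. No Xlr member and no sum over members was marked.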

How the results depend on the processing

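The sign of the log2 difference was kept for the family under all alternatives. For each member it was kept under all except the other filters, under which members were not followed singly. The filter of a scaled value of at least 10 in 2 libraries left 8 of the 10 members. Among neighbours that did not pass, Pnma5 (-0.31 to 0.70), Zfp185 (-0.22 to 0.11), Haus7 (-0.21 to 0.08), Slc6a8 (-0.03 to 0.31) and Cetn2 (-0.53 to 0.0039) changed sign with 1 library left out. The family's log2 difference, 1.95, was 1.23 with a pseudocount of 5 and 1.35 for Xlr5 alone, and it ranged from 1.57 to 2.33 with each library left out. With each library left out, genes called higher ranged from 237 (without KO line 2) to 2004 (without WT replicate 1) beside 1071, genes called lower from 235 to 1300 beside 807, X-linked genes called higher from 8 to 86 beside 28 and lower from 10 to 59 beside 48. Germ line genes called higher ranged from 7 to 16 beside 17, X-linked germ cell genes from 1 to 5 beside 5, neighbours called higher from 1 to 5 beside 1 and lower from 1 to 2 beside 2. X-linked germ cell genes called higher were 3 with quantile normalization and 2 with a scaled value of at least 10 in 2 libraries, a filter that leaves fewer genes. Neighbours called higher were 2 with a pseudocount of 5 and 2 with quantile normalization. The cause of the other changes was not tested. The alternatives for X-linked germ cell genes and neighbours were chosen after seeing the data.

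With the replicate number as a block, a fit in which KO lines 3 and 4 have numbers of their own and only the other 4 libraries bear on the difference, 2 genes were called higher and 18 lower. Of X-linked genes 0 were called higher and 1 lower, of germ line genes 0 higher, of X-linked germ cell genes 0 higher, and of neighbours 0 higher and 1 lower. The labels number WT replicates and KO lines separately. Deviations of same-numbered libraries had correlations of 0.145 and 0.097. With 2 WT libraries, the values for WT replicate 2 mirror those for WT replicate 1 (-0.145 with KO line 1, for example). They cannot show whether same-numbered libraries share more than a number. Read depth is unknown, so its limit on low members could not be given.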
